A study of Homo sapiens with 4 samples.

Results

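Sestrins, DDIT4 and genes for the growth kinase mTOR, its complexes and its inhibitors were examined in T47D, an established human line of luminal breast cancer cells. The members were the rows of a gene count table whose symbol is SESN1, SESN2, SESN3, DDIT4, TSC1, TSC2, DEPTOR, MTOR, RPTOR or RICTOR. Of these 10 genes 9 were analysed, among 20515 genes in the table, and all 9 passed the filter on low counts. SESN3 was not analysed here. The study compared 2 control libraries with 2 libraries from cells given baicalein, a plant flavonoid. All 4 libraries were made from poly(A) RNA of the same cell line. Dose, exposure time and vehicle were not stated in the labels, and neither was the origin of replicates (separate cultures or 1 culture). P-values therefore measure the spread between these libraries, which may be technical.

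mTOR is a protein kinase that promotes protein synthesis and restrains autophagy when nutrients and growth factors are present. It works in a complex with RPTOR (raptor), called mTORC1, and in another with RICTOR, called mTORC2, and DEPTOR binds and inhibits both. TSC1 and TSC2 form a complex that switches off RHEB, the small GTPase that activates mTORC1 on the lysosome. Sestrins bind the GATOR2 complex and so block the amino acid signal to mTORC1, and SESN2 is known as a leucine sensor. DDIT4, also called REDD1, acts through the TSC complex and is known as a gene switched on by hypoxia, glucocorticoids and stress of the endoplasmic reticulum. SESN2 is also a known target of the stress factor ATF4.

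The sequences just upstream of the transcription starts are shown for SESN2 and DDIT4, the members that rose most. They come from RefSeq (build GRCh38.p14) and cover the 250 bases before the annotated start, written 5′ to 3′ on the strand of the gene, which is the plus strand in each case. The windows lie at chr1:28259268-28259517 (SESN2) and chr10:72273674-72273923 (DDIT4). Capitals mark matches, on either strand, to any of 5 motifs searched in every window: TGATGNAA (the core of the element bound by ATF4 with C/EBP factors), GCGTG (bound by the aryl hydrocarbon receptor and by hypoxia-inducible factors), ACGTG (bound by hypoxia-inducible factors), TGTTTAC (forkhead factors) and TGACGTCA (cAMP response element).
SESN2: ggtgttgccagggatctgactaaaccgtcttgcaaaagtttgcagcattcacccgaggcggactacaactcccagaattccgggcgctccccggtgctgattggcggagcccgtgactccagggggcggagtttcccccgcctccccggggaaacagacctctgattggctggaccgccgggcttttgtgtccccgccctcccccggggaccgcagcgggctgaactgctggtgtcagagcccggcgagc
DDIT4: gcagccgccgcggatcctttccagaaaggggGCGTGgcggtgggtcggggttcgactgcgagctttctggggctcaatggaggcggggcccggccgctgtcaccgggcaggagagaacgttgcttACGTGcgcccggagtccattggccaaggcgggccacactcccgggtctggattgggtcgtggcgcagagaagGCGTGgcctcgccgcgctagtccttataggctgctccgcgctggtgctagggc
The SESN2 window held no match to any of the motifs. The DDIT4 window held GCGTG at 219 and 53 bases before the start and ACGTG at 125 bases before it. Among the members, TGATGNAA matched only in a window of TSC2 (not shown), at 110 bases before the start and overlapping an ACGTG match found on both strands. Windows were found for 8 of the 9 members (11 windows, SESN1 having 3 and TSC2 2). GCGTG occurred in windows of 5 members and ACGTG in windows of 3, and neither TGTTTAC nor TGACGTCA occurred in any of the 11. Among all 35116 RefSeq windows of this length, 32.2% held GCGTG, 18.5% ACGTG, 3.14% TGATGNAA, 2.98% TGTTTAC and 1.65% TGACGTCA. A match here describes letters only, and binding was not measured.

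Total counts ranged from 38597207 to 56732569 per library. Levels are CPM (counts scaled to library size) with TMM factors, which correct for differences in RNA composition, and are given as mean ± SD (n = 2 libraries per group). A floor of 3 counts stood for 0.0549 to 0.0805 CPM, and every member lay well above it. Of the 8 luminal markers chosen for T47D, 7 fell after baicalein and EPCAM did not pass the test. Their summed level was 12334 to 13612 CPM in controls and 6238 to 6333 CPM after baicalein. The basal markers KRT17 and TP63 summed to 4.76 to 5.70 CPM and 1.13 to 1.48 CPM, but moved in opposite directions, KRT17 rising (log2 fold change 2.29) and TP63 falling (-3.89). The fibroblast markers COL1A1 and LUM summed to 90.3 to 100.6 CPM and 141 to 151 CPM, nearly all of it COL1A1. The leukocyte marker CD68 was at 0.274 to 0.362 CPM in the 4 libraries, and endothelial markers were not analysed here. The part of these marker shifts in the results below was not tested. In bulk RNA, fewer cells of a type and less RNA per cell cannot be told apart.

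Baicalein-treated cells held about 10 times as much DDIT4 RNA and about 5 times as much SESN2 RNA as controls, and SESN1 RNA did not pass the test. TSC1, RICTOR, DEPTOR and RPTOR were higher by less than 2-fold. By the edgeR quasi-likelihood F test (Benjamini-Hochberg adjusted over 18369 tested genes), 6 of the 9 members were higher, 2 (TSC2 and MTOR) were slightly lower and 1 did not pass. Over all tested genes 75.0% were called at the same threshold of 0.05, 37.4% as higher and 37.6% as lower. A call in either direction was thus the usual outcome in these libraries, and 8 of 9 is near that background. The median log2 fold change was 0.35 over the 9 members and 0.0017 over all tested genes. At least 2-fold rises were called in 2 of the 9 members and in 12.2% of all tested genes.

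DDIT4 (ENSG00000168209, chromosome 10, positions 72273920 to 72276036 of GRCh38, plus strand) had the largest rise of the members. Its level was 24.8 CPM in control 1 and 24.9 CPM in control 2, against 255 CPM in baicalein 1 and 266 CPM in baicalein 2. The groups stood far apart, and the 2 controls were nearly equal. Its log2 fold change was 3.39 (SE 0.05, adjusted p = 1.75e-23), or 10.5-fold. By size of rise DDIT4 ranked 248 among the 18369 tested genes. In the GENCODE annotation, 41.2% of its exon bases are also covered by DDIT4-AS1 on the opposite strand. The labels do not say if reads were counted by strand, so reads of that antisense gene could not be told apart from those of DDIT4.

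SESN2 (ENSG00000130766, chromosome 1, positions 28259527 to 28282491, plus strand) was at 26.8 CPM and 29.7 CPM in control 1 and control 2. It was at 147 CPM and 151 CPM in baicalein 1 and 2, again with no overlap between groups. On the log2 scale it rose by 2.40 (SE 0.05, adjusted p = 6.21e-21 by edgeR), or 5.28-fold, and SESN2 ranked 525 of all tested genes by size of rise. No exon of another annotated gene overlaps its exons.

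SESN1 (ENSG00000080546, chromosome 6, positions 108986437 to 109094819, minus strand) codes for another sestrin. It was at 11.1 CPM and 9.51 CPM in the controls and at 10.1 CPM and 9.37 CPM after baicalein, so the groups overlapped. Its log2 fold change was -0.08 (SE 0.09, adjusted p = 0.450 by edgeR). With GC content and exon length corrected it was -0.19 with adjusted p = 0.0455, and without control 1 it was 0.034 with adjusted p = 0.771. The ratio of SESN2 to SESN1 counts was 2.42 and 3.12 in control libraries. After baicalein it was 14.7 and 16.1.

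**Figure D1:**
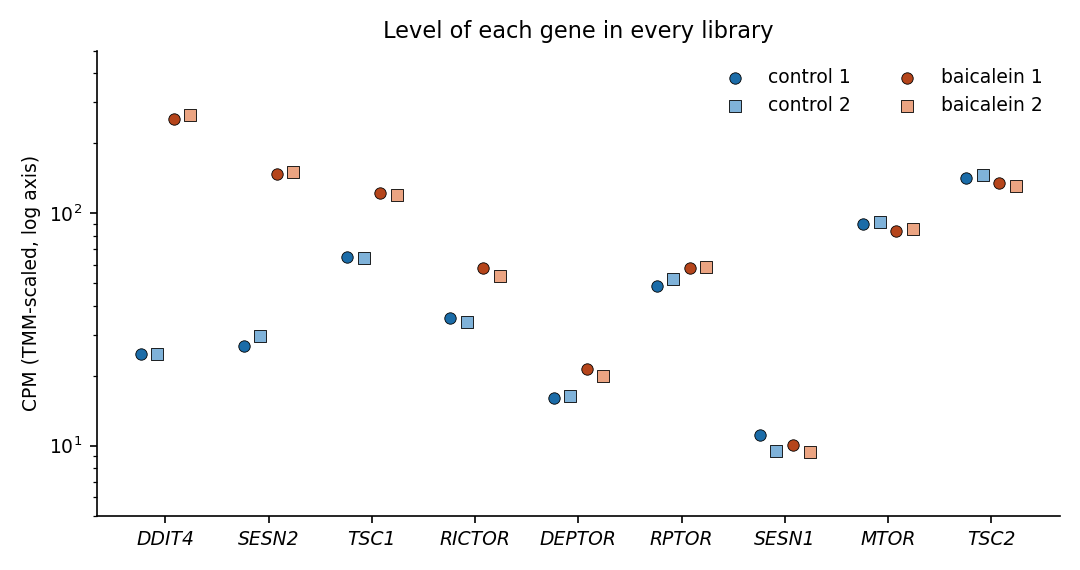
Level of each gene in every library in TMM-scaled CPM on a log axis, one point per library (blue controls, red baicalein), with genes ordered by their change. DDIT4 and SESN2 separate most, from about 25 and 28 CPM in controls to 260 and 149 CPM after baicalein, whereas the points of SESN1 overlap.

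The 2 genes of the TSC complex did not move alike. TSC1 (ENSG00000165699, chromosome 9, positions 132891348 to 132946874, minus strand), which codes for hamartin and stabilises its partner, was at 64.6 CPM and 64.1 CPM in the controls. After baicalein it was at 122 CPM and 119 CPM, so both treated libraries lay above both controls. Its log2 fold change was 0.91 (SE 0.04, adjusted p = 1.19e-14 by edgeR), or 1.87-fold.

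TSC2 (ENSG00000103197, chromosome 16, positions 2047465 to 2089487, plus strand) codes for tuberin, the subunit that acts on RHEB. It was at 142 CPM and 145 CPM in the controls and at 135 CPM and 131 CPM after baicalein, a narrow gap in which the groups did not overlap. The log2 fold change was -0.11 (SE 0.04, adjusted p = 0.0250 by edgeR). The call was lost at a threshold of 0.01 and against a 1.5-fold change. It was also lost with GC content and exon length corrected, where the value was -0.02 (adjusted p = 0.622 by edgeR). Without baicalein 1 (value -0.13) and without baicalein 2 (-0.08) the call was lost too, in fits where only the controls give the spread. With control 1 or control 2 left out the call held, at -0.13 and -0.09, where only the baicalein libraries give the spread. Exons of NTHL1 and PKD1 overlap 2.05% and 3.96% of the TSC2 exon bases on the opposite strand. NTHL1 had a log2 fold change of -1.53 and PKD1 of 1.001, and their part in the TSC2 count was not tested.

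TSC1 had 0.454 and 0.441 times the counts of TSC2 in control libraries. After baicalein these ratios were 0.901 and 0.907. The ratio thus rose 2.02-fold between the group means, with an SD of 0.0090 in controls and 0.0044 after baicalein. Such a ratio does not depend on the scaling between libraries. With GC content and exon length corrected, the fold rise from the fitted values was 1.65. As counts are not divided by length here, it shows the shift between the genes and not their relative number of transcripts. TBC1D7, which codes for the third subunit of this complex, fell from 18.2 ± 0.210 to 11.8 ± 0.471 CPM (log2 fold change -0.62, adjusted p = 1.33e-07 by edgeR). RHEB, the target of the complex, rose from 66.9 ± 1.70 to 140 ± 0.386 CPM (log2 fold change 1.06, adjusted p = 4.58e-16 by edgeR). The related gene RHEBL1 was at 1.99 ± 0.157 and 2.17 ± 0.0327 CPM and did not pass (adjusted p = 0.510 by edgeR). DDIT4L, the paralog of DDIT4, was not analysed here.

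MTOR (ENSG00000198793, chromosome 1, positions 11106535 to 11262507, minus strand) codes for the kinase itself. It was at 90.1 CPM and 91.4 CPM in the controls and at 83.6 CPM and 85.6 CPM after baicalein. The groups did not overlap, but the gap was small, at -0.10 on the log2 scale (SE 0.04, adjusted p = 0.0392 by edgeR). With GC content and exon length corrected the value was -0.18 (adjusted p = 1.71e-05 by edgeR). With library totals alone as the scaling it was -0.21 (adjusted p = 2.63e-04 by edgeR). Those settings moved the median of the tested genes by -0.06 and -0.10, so with library totals MTOR kept its value relative to the median. The call was lost in DESeq2 (adjusted p = 0.107), with the replicate number as a block (adjusted p = 0.0624), with a filter of 50 counts in 2 libraries (adjusted p = 0.0590), at a threshold of 0.01 and against a 1.5-fold change. It was also lost without baicalein 1 (value -0.08) and without baicalein 2 (-0.11), in fits where only the controls give the spread. With control 1 or control 2 left out the call held, at -0.12 and -0.09, where only the baicalein libraries give the spread.

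RPTOR (ENSG00000141564, chromosome 17, positions 80544819 to 80966371, plus strand), whose product recruits substrates to mTORC1, was at 48.8 CPM and 52.3 CPM in the controls. After baicalein it was at 58.4 CPM and 58.5 CPM, above both controls. The log2 fold change was 0.21 (SE 0.05, adjusted p = 8.10e-04 by edgeR). With library totals alone as the scaling it was 0.11 and did not pass (adjusted p = 0.0645). That scaling moved the median of all tested genes by -0.10 on the log2 scale, so relative to the median RPTOR kept its value.

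RICTOR (ENSG00000164327, chromosome 5, positions 38937919 to 39074408, minus strand), the defining subunit of mTORC2, was at 35.4 CPM and 34.1 CPM in the controls. It was at 58.3 CPM and 53.5 CPM after baicalein, with both treated libraries above the controls. The log2 fold change was 0.69 (SE 0.05, adjusted p = 1.13e-10 by edgeR), or 1.61-fold. RICTOR has the lowest GC content of the members (36.5% in its longest transcript), and with GC content and exon length corrected its log2 fold change was 0.48. Exons of OSMR overlap 1.69% of its exon bases on the opposite strand, and OSMR itself had a log2 fold change of 0.05. The ratio of RICTOR to RPTOR counts went from 0.725 and 0.652 in controls to 0.998 and 0.915 after baicalein, a 1.39-fold rise of the mean ratio. With GC content and exon length corrected, RPTOR was at 0.35, and the fold rise of the ratio from the fitted values was 1.09.

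DEPTOR (ENSG00000155792, chromosome 8, positions 119873717 to 120050913, plus strand), the inhibitor found in both complexes, was at 16.004 CPM and 16.4 CPM in the controls. It was at 21.4 CPM and 19.9 CPM after baicalein, with no overlap between groups. The log2 fold change was 0.35 (SE 0.07, adjusted p = 1.18e-04 by edgeR), or 1.28-fold. Exons of a long non-coding gene on the opposite strand cover 9.61% of its exon bases.

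**Figure D2:**
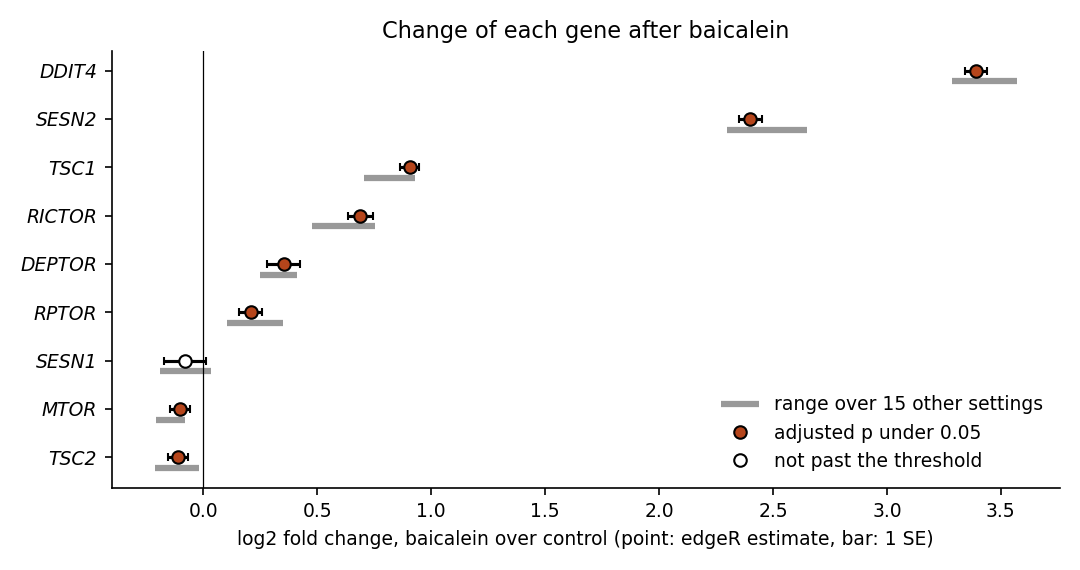
Log2 fold change of each gene, baicalein over control, as the edgeR estimate (points, filled where the adjusted p is under 0.05) with a bar of 1 SE, and below it the range of the estimate over 15 other settings (grey). DDIT4 at 3.39 and SESN2 at 2.40 lie far to the right in every setting, and the range of SESN1 crosses 0.

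Against a 1.5-fold change rather than no change, 4 members remained higher (DDIT4, SESN2, TSC1 and RICTOR) and none lower. That test called 16.8% of all tested genes higher, and it called 3581 of the 18369 lower. Both treated libraries lay on one side of both controls in 8 of the 9 members. The same separation was found in 86.9% of all tested genes, so it was common to most genes.

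**Figure D3:**
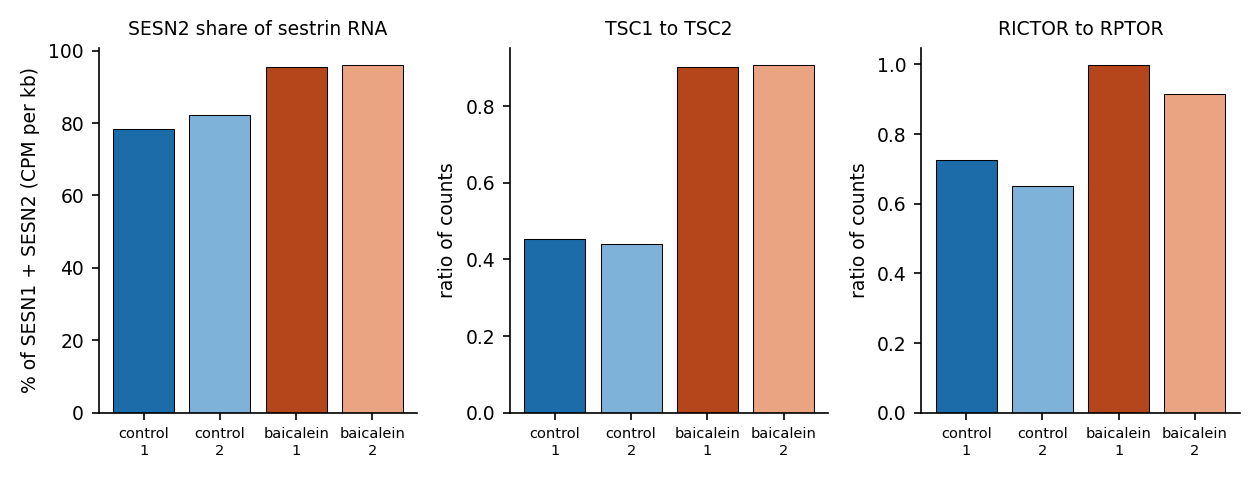
Share of SESN2 in the summed level of SESN1 and SESN2 (left, percent, from CPM per kilobase of exon) and the count ratios of TSC1 to TSC2 (middle) and RICTOR to RPTOR (right), one bar per library. Each of the measures is higher in both baicalein libraries than in both controls, with TSC1 to TSC2 near 0.45 in controls and 0.90 after baicalein.

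Per kilobase of exon, SESN2 made up 78.2% and 82.2% of the summed SESN1 and SESN2 level in the controls and 95.6% and 96.0% after baicalein. The mean share was 80.2 ± 2.83% and 95.8 ± 0.267%. SESN2 was thus the more abundant of the pair already in control cells. With 2 libraries per group, the shares are given without a test, since an exact permutation test could not reach the threshold.

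To compare levels between genes, CPM were divided by the length of the longest coding transcript. On that scale the controls ranked TSC2 first at 22.7 ± 0.337 CPM per kilobase, followed by DDIT4 at 14.2 ± 0.0294 and MTOR at 10.5 ± 0.11. SESN2 (8.18 ± 0.583), RPTOR (7.89 ± 0.382) and TSC1 (7.39 ± 0.0395) came next, and SESN2 and RPTOR differed by less than their SD. DEPTOR (6.31 ± 0.120), RICTOR (3.64 ± 0.0965) and SESN1 (2.93 ± 0.315) were the lowest.

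After baicalein DDIT4 led at 149 ± 4.32 CPM per kilobase of coding transcript, with SESN2 at 43.2 ± 0.709 and TSC2 at 21.0 ± 0.421. TSC1 followed at 13.8 ± 0.210, ahead of MTOR (9.75 ± 0.161), RPTOR (9.12 ± 0.0183) and DEPTOR (8.04 ± 0.422). RICTOR was at 5.86 ± 0.350 and SESN1 remained last at 2.77 ± 0.138. TSC2 depends on the length used: per kilobase of all its annotated exon bases it was at 7.34 ± 0.109 in controls, below DDIT4, SESN2 and MTOR. With that length DEPTOR (6.19 ± 0.118) stood above RPTOR (4.91 ± 0.237) and TSC1 (3.66 ± 0.0195) in controls. After baicalein TSC1 and TSC2 (6.85 ± 0.104 and 6.79 ± 0.136) then differed by less than their SD.

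Other genes of the pathway were taken from 9 lists by role, with 87 genes in all, of which 85 were tested. The test called 53 of them higher and 26 lower, leaving 6 uncalled. The median log2 fold change was 0.31, against 0.0017 over all tested genes, with 37.4% of tested genes called higher and 37.6% lower. At least 2-fold rises were called in 22 of the 85 and at least 2-fold falls in 6, against 12.2% and 15.2% of all tested genes. Against a 1.5-fold change 28 were higher and 8 lower, beside 3090 higher and 3581 lower of all 18369 tested genes. The shares over all tested genes are the background for the counts of each list below, and no list was tested as a set.

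Of the other subunits of mTORC1 and mTORC2, 2 of 6 were higher and 3 lower. MLST8, the subunit shared by both complexes, rose from 40.3 ± 0.807 to 50.01 ± 2.07 CPM, and AKT1S1 (PRAS40, an inhibitor of mTORC1) from 49.8 ± 0.523 to 60.9 ± 0.432 CPM. MAPKAP1, which codes for the mTORC2 subunit SIN1, was at 117 ± 1.07 and 113 ± 2.04 CPM and did not pass (adjusted p = 0.341 by edgeR). PRR5, an mTORC2 partner, fell from 13.4 ± 0.404 to 8.83 ± 0.0461 CPM. TELO2 and TTI1, which help to assemble mTOR and related kinases, fell with log2 fold changes of -0.96 and -0.56.

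A list of GATOR2, the complex that sestrins bind, and of nutrient sensors had 5 higher and 3 lower genes of 8. The scaffold genes moved little, with log2 fold changes of 0.46 in SEC13, 0.41 in MIOS and -0.30 in WDR24, and WDR24 was at 0.045 with GC content and exon length corrected. The arginine sensor gene CASTOR1 fell from 7.12 ± 0.849 to 1.91 ± 0.0671 CPM and CASTOR2 from 18.9 ± 0.0319 to 5.93 ± 0.531 CPM. Within the list these were the only falls of at least 2-fold. SAMTOR, which senses S-adenosylmethionine and binds GATOR1 and not GATOR2, had a log2 fold change of 0.44 (adjusted p = 0.00458 by edgeR), a call lost in DESeq2 (adjusted p = 0.0506) and without control 2 (adjusted p = 0.0549).

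GATOR1, which inactivates the Rag GTPases, and its lysosomal anchor KICSTOR had 4 higher and 2 lower genes of 7. KICS2, a KICSTOR subunit, rose from 9.79 ± 0.643 to 30.2 ± 0.811 CPM. The KICSTOR gene ITFG2 had a log2 fold change of 0.42, whereas KPTN of that anchor fell with -0.56. The GATOR1 subunit gene NPRL2 fell from 24.3 ± 0.0046 to 15.1 ± 0.0608 CPM.

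The list of Rag GTPases, Ragulator and folliculin held the largest rises around the lysosome. In it 8 of 13 were higher, 5 of them by at least 2-fold, and 4 lower. Over all tested genes 37.4% were higher, 12.2% rose by at least 2-fold and 37.6% were lower. RRAGD was at 3.197 CPM and 3.06 CPM in the controls and at 38.2 CPM and 41.1 CPM after baicalein, a rise of 3.66 on the log2 scale (SE 0.08, adjusted p = 2.01e-20 by edgeR). RRAGC rose from 22.9 ± 0.270 to 98.1 ± 0.0254 CPM. FNIP1, which codes for the folliculin partner that acts on RagC and RagD, rose from 33.6 ± 1.27 to 172 ± 3.51 CPM. The folliculin gene FLCN and RRAGB had log2 fold changes of 1.79 and 1.43. LAMTOR2, RRAGA and SLC38A9 fell with -0.53, -0.30 and -0.25, and the SLC38A9 call was lost without baicalein 1 (adjusted p = 0.0518).

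Among genes of the energy sensor AMPK and its activator LKB1, 7 of 9 were higher and 1 lower, beside 37.4% and 37.6% of all tested genes. CAB39, an LKB1 partner, rose from 33.3 ± 0.926 to 69.8 ± 0.439 CPM. The regulatory subunit genes PRKAB2 and PRKAB1 had log2 fold changes of 0.82 and 0.64. STK11, which codes for LKB1, fell from 109 ± 5.12 to 78.2 ± 1.61 CPM.

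Of 12 genes of the insulin, PI3K and AKT input, 7 were higher and 4 lower. AKT1, whose product phosphorylates and inhibits TSC2, was at 440 CPM and 454 CPM in the controls and at 155 CPM in both treated libraries (log2 fold change -1.53, SE 0.04, adjusted p = 9.81e-19 by edgeR). PIK3R1, the regulatory subunit of PI3K, fell from 72.3 ± 2.51 to 35.4 ± 1.12 CPM, and IGF1R had a log2 fold change of -0.44. The adaptor gene IRS2 rose from 5.42 ± 0.483 to 24.4 ± 1.24 CPM and IRS1 from 33.6 ± 0.895 to 59.9 ± 1.36 CPM.

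Genes for substrates and effectors of mTOR numbered 15, with 9 higher and 6 lower. LPIN1, a phosphatidate phosphatase kept out of the nucleus by mTORC1, rose from 13.1 ± 0.362 to 84.8 ± 0.267 CPM. TFE3, a lysosomal transcription factor that mTORC1 holds in the cytoplasm, rose from 73.4 ± 2.64 to 172 ± 3.25 CPM. TFEB of the same list fell from 10.1 ± 0.603 to 7.91 ± 0.245 CPM (log2 fold change -0.36, adjusted p = 0.00104 by edgeR). The translation repressor genes EIF4EBP1 and EIF4EBP2 went opposite ways, with log2 fold changes of 0.90 and -0.91. The S6 kinase genes also went opposite ways, with RPS6KB1 at 0.41 and RPS6KB2 at -0.53, both past the threshold. EIF4EBP3 and SGK1 were near the floor (log2 fold changes 1.76 and -2.12, with 3 to 30 and 4 to 32 counts per library), and the EIF4EBP3 call was lost in DESeq2 (adjusted p = 0.0532), without control 1 (adjusted p = 0.0567) and without baicalein 1 (adjusted p = 0.0779).

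**Figure D4:**
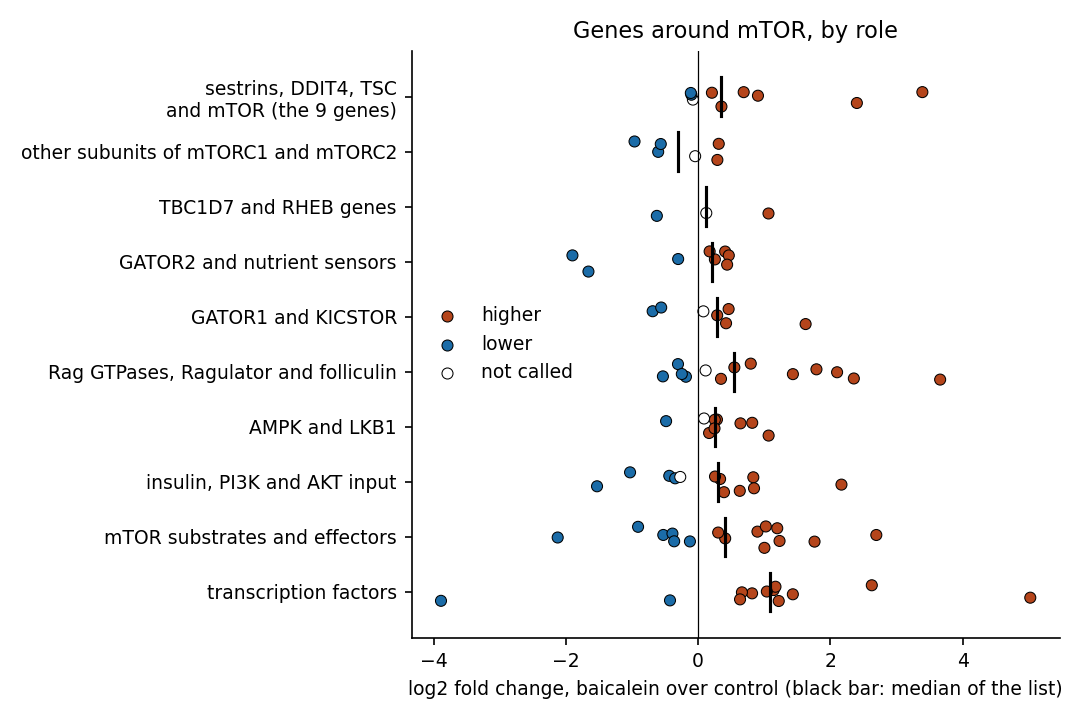
Log2 fold change, baicalein over control, of every tested gene in the lists around mTOR, one point per gene (red higher, blue lower, white not called) with the list's median as a black bar. The Rag and folliculin list reaches 3.66 (RRAGD) and the transcription factor list 5.02 (DDIT3), while CASTOR1 and CASTOR2 lie at -1.90 and -1.66.

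Of 12 genes for transcription factors known to induce sestrins or DDIT4, 10 were higher, 7 by at least 2-fold, and 2 lower. The shares of all tested genes were 37.4% higher, 12.2% higher by at least 2-fold and 37.6% lower. ATF4 rose from 229 ± 7.02 to 532 ± 14.6 CPM and DDIT3, which codes for CHOP, from 12.4 ± 0.461 to 403 ± 43.6 CPM. CEBPB had a log2 fold change of 2.63 and NFE2L2, which codes for NRF2, of 1.43. HIF1A rose from 143 ± 4.75 to 251 ± 4.70 CPM and FOXO3 from 43.9 ± 0.909 to 98.7 ± 1.90 CPM. FOXO1 had a log2 fold change of 0.63. TP63 fell with -3.89 and FOXO4 with -0.42, and the FOXO4 call was lost without baicalein 1 (adjusted p = 0.111). RNA levels of these factors say nothing of the activity of their proteins, which was not measured.

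The genes whose profile over the 4 libraries lay closest to that of DDIT4, by Euclidean distance of mean-centred log2 CPM among 12611 other genes, were CDKN1A, ERN1, S100P, RGS16 and SLC7A5, at distances of 0.050, 0.074, 0.086, 0.11 and 0.12. Their log2 fold changes were 3.42, 3.35, 3.49, 3.39 and 3.51. CDKN1A codes for the cell cycle inhibitor p21, ERN1 for a sensor of the unfolded protein response and SLC7A5 for a transporter of leucine and other large amino acids. Closest to TSC2, the member with the lowest log2 fold change, were ADPRS, SRBD1, GATB, EIF2B2 and TOR3A, at 0.0072 to 0.016 and with log2 fold changes of -0.10 to -0.12. With 4 libraries in 2 groups, this distance is mostly a measure of how alike the changes are in size.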

How the data were processed

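The deposited table gives unscaled counts, all whole numbers, for 20515 genes with 0 columns of other samples. STAR 2.7.8a and RSEM 1.3.3 are among the tools in the submitters' processing notes, which give GRCh38 as the build but no role for any tool. If the counts are rounded estimates, genes that share reads carry assignment error. Columns were matched through the sample descriptions and groups through the titles.

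The test was that of edgeR 4.0.16 under R 4.3.3 (robust quasi-likelihood F test, all 4 libraries, no covariates) after TMM scaling and filterByExpr (minimum count 10, minimum total 15), with Benjamini-Hochberg adjustment. The SE is the log2 fold change divided by the square root of F. Log2 CPM used a prior count of 2. Coordinates, lengths and overlaps came from GENCODE release 29 on GRCh38, which may not be the authors' release. The scripts were run on simulated counts in which only a small set of genes changed. In these data most tested genes were called, so that run does not check scaling or calls under such a wide shift. The floors allow for counting error alone, because the reads carry no molecular identifiers.

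The members and lists were chosen with earlier results of these data known. The rule for names took all members, up to 3 higher and 3 lower called genes per list by size, direct partners of members and the main inducers, and the 5 genes nearest in profile to DDIT4 and TSC2. FLCN, RRAGB, EIF4EBP1, RPS6KB1, TFEB, RHEBL1, NTHL1, PKD1 and OSMR were named after their values were seen. Other settings tried were scaling by library totals, upper quartile or DESeq2 factors, filtering at 50 counts in 2 libraries or not at all, DESeq2 1.42.0 and limma-voom (limma 3.58.1), stricter calls (0.01, or tested against 1.5-fold), a replicate block, GC and exon length offsets (mgcv 1.9.3), and each library left out in turn, the lone library of a group then being assumed to vary like the others. Some genes that the rule names are left out of the text.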

Additional observations from a re-analysis of the deposited data

How the results depend on the processing

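Calls and directions of DDIT4, SESN2, TSC1 and RICTOR held in all 15 other settings, and those of DEPTOR in all but the test against a 1.5-fold change, which asks for a larger effect. Of 135 values of members under these settings, 118 kept their direction and their side of the threshold. The count of 2 lower members fell to 1 with 50 counts in 2 libraries, 1 in DESeq2, 0 at a threshold of 0.01 and 0 against a 1.5-fold change, and it ranged from 0 to 2 when a library was left out (0 without baicalein 1 and 0 without baicalein 2). SESN1 turned from -0.08 to 0.034 without control 1 (-0.18 without control 2, the lowest value with a library left out), and WDR24 from -0.30 to 0.045 with GC content and exon length corrected. The cause was not tested. Against a 1.5-fold change 3090 of all tested genes were higher and 3581 lower, and of the pathway genes 28 and 8. Genes called ranged from 6128 to 6944 higher and from 6294 to 6896 lower when a library was left out.

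With CPM not divided by length, SESN1 made up 26.7% of the summed sestrin level in controls and 6.12% after baicalein, and SESN2 73.3% and 93.9%. With the length of the longest coding transcript, chosen after seeing the data, these shares were 26.4%, 6.02%, 73.6% and 94.0%. The size of the share thus depends on the length used, and SESN2 led in each case.

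Nothing in the labels says that replicate numbers pair the samples, and deviations of same-numbered libraries correlated at 0.0136. With the replicate number as a block, 6894 genes were higher and 6909 lower, and 6 members were higher and 1 lower, MTOR being the call that was lost. With 2 libraries per group, small changes such as those of SESN1, TSC2 and MTOR are at the limit of what these data resolve.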
